A study of Mus musculus with 15 samples.

Results

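Respiratory complexes II, III and IV carry electrons from succinate and ubiquinol to oxygen in the inner mitochondrial membrane. Their nuclear genes were compared here between the 2 alleles of hybrid mouse cells. Members were taken by gene symbol: the Sdh subunits and Sdhaf assembly factors of complex II, the Uqcr genes and Cyc1 of complex III, cytochrome c (Cycs), and every Cox gene numbered as a subunit or assembly factor of complex IV. On autosomes this gave 50 of the 44260 genes in the table, 8 of complex II, 10 of complex III with cytochrome c, 26 of complex IV and 6 pseudogenes. The choice used names, not measured values, but earlier results of these data were known when it was made.

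The cells were cortical organoids, cultures that imitate the early cerebral cortex, made from SpretB6 epiblast stem cells. Day 12 comes from the name of the table; the tissue label gives only the stem cells. Each autosome comes in a copy from C57Bl/6J (B6), the standard laboratory strain, and a copy from Mus spretus (Spret), a wild-derived species. The 3 libraries, titled C1 to C3, are called library 1, 2 and 3, and each gave a B6 and a Spret value per gene. Another 12 samples of the series, induced pluripotent stem cells of 4 crosses, were not analysed here. No treatment is named, and both alleles of a library come from the same cells and the same RNA. No label says that the 3 libraries came from separate cultures, so the p-values below rest on a spread between libraries that may be only technical. The X-linked subunit gene Cox7b, which the names also match, read 233, 241 and 231 from B6 and 0, 0 and 0 from Spret in libraries 1, 2 and 3, so it has no second allele to compare and was set aside. With the X read from B6 and no reverse cross analysed, strain and parent of origin cannot be told apart here.

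Complex II, succinate dehydrogenase, links the citric acid cycle to the respiratory chain by passing electrons from succinate to ubiquinone. Complex III, the cytochrome bc1 complex, passes electrons from ubiquinol to cytochrome c, a small soluble carrier, and complex IV, cytochrome c oxidase, hands them to oxygen. Complexes III and IV also hold subunits made from mitochondrial DNA, so their nuclear subunits must be built in step with a second genome. Developing neurons depend increasingly on this chain as they leave the progenitor state.

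Values are read numbers assigned to an allele and normalised by the authors, and they depend on transcript length and on how many sequence differences a gene carries, so they were compared between alleles and not between genes. The 6 allele columns summed to between 2088788 and 3027078. A gene was tested if its mean over the 6 columns was at least 10, and differences are given as log2(Spret + 1) minus log2(B6 + 1), called the ratio, with its SE from limma. A gene was called at an adjusted p under 0.05 by limma, adjusted by Benjamini-Hochberg over 15985 tested genes. Of all tested genes 30.4% were called, and 7.56% were called higher from Spret. On autosomes 28.4% of 15456 tested genes were called, 7.78% higher from Spret and 20.7% higher from B6, and the median ratio was -0.13. The way reads were assigned to alleles is a step not given in the sources used here. The part of that general lean in single results was not tested. Where ratios were centred per library on this median, 26.8% were called, 13.3% higher from Spret and 13.5% higher from B6. The cortical progenitor and neuron markers Emx2, Pax6, Eomes, Tbr1, Neurod6, Map2 and Tubb3 were all detected. Other groups were detected too, so detection alone does not set a cell type apart. Markers of mesenchyme summed to 249, 241 and 241 in libraries 1, 2 and 3. Those of pluripotent cells summed to 72, 101 and 36, and those of endoderm to 26, 55 and 17. Markers of cortical hem and choroid plexus summed to 3537, 979 and 622 in libraries 1, 2 and 3, so library 1 stood apart there. In bulk RNA, fewer cells of a type and less RNA per cell cannot be told apart.

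Called members went in both directions within each complex. In complex II the only call toward B6, that of Sdhaf1, ended with centred ratios. Of the 37 members abundant enough to test, 8 were higher from Spret and 9 from B6 by limma. That is 17 called members (45.9%), beside the 28.4% of autosomal genes. The gap was smaller among genes of larger read number. With a minimum mean of 50, 13 of 28 tested members and 3640 of 9232 tested genes of all chromosomes were called. These shares were not tested against each other. All 17 had the same sign in 3 of 3 libraries, and in 13 of them the 3 values of an allele lay wholly above those of the other, a separation seen in 15 of 37 members and in 23.8% of autosomal genes (6.96% with Spret above, 16.8% with B6 above). The difference was at least 2-fold in 6 called members, between 1.5-fold and 2-fold in 7, and smaller in 4. Called genes of at least 2-fold made up 7.35% of autosomal genes. The median ratio of the 37 was -0.05, and the ratios ran from -1.78 for Cox7a2l to 1.17 for Sdhaf4. With centred ratios 11 members were called toward Spret and 7 toward B6, beside 13.3% and 13.5% of autosomal genes. Without library 1 the count fell to 9, with 4 toward Spret and 5 toward B6, and without library 3 to 12, with 5 toward Spret. Calls over all chromosomes fell as well, from 4852 of 15985 tested genes. They came to 2667 of 16096 without library 1 and to 3296 of 16322 without library 3. Cycs, Uqcrb, Cox6b1 and Cox7a2l were called in each of the 10 alternative settings that gave them a value.

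**Figure D1:**
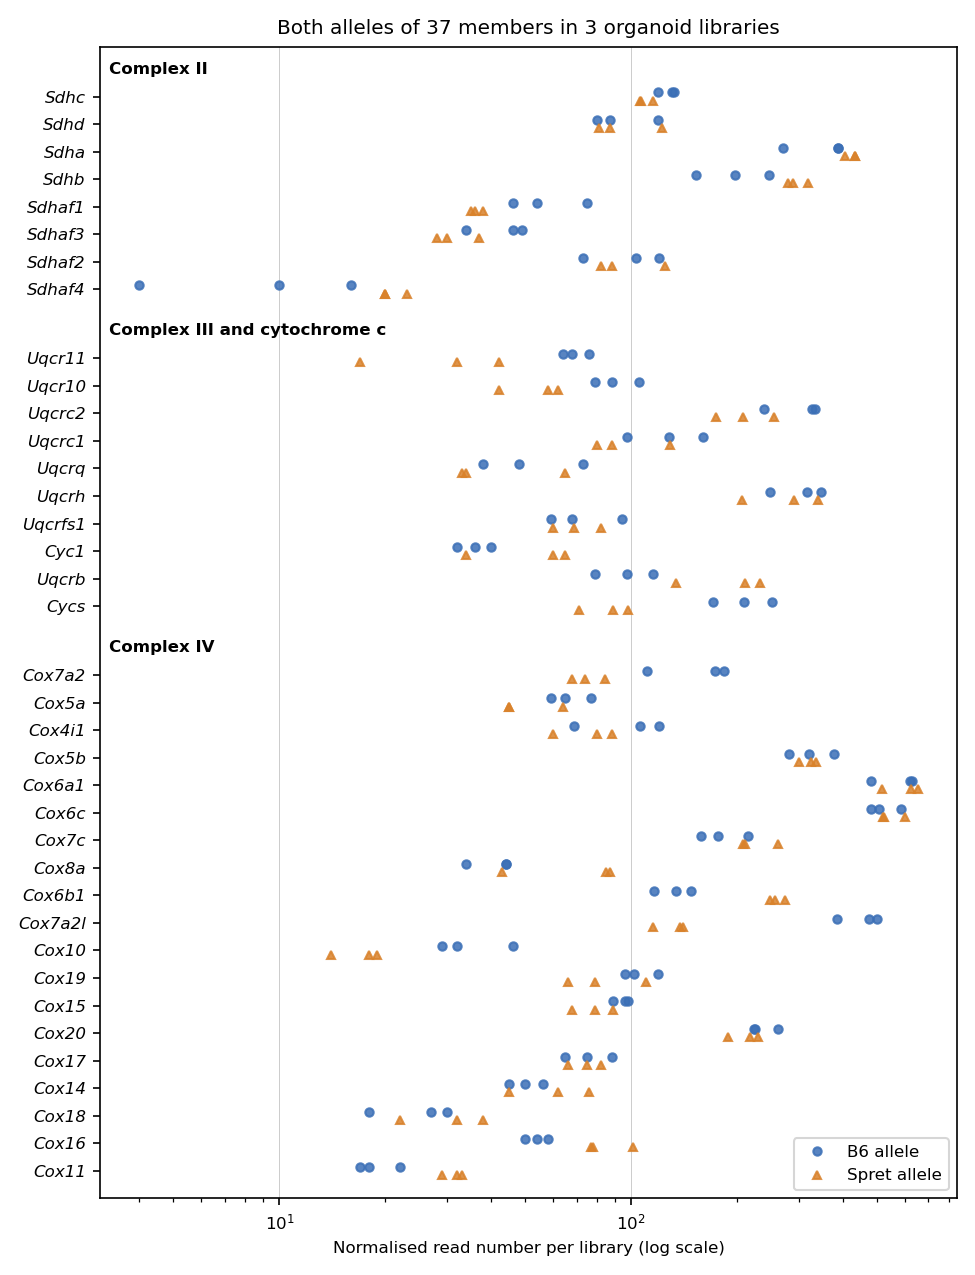
Normalised read numbers (log axis) of the 37 tested members, with 3 B6 values (circles) and 3 Spret values (triangles) per gene, 1 per library. The alleles are widely apart in Cox7a2l, where the Spret values of 115 to 140 lie far below the B6 values of 385 to 500, and lie on top of each other in Cox6a1 and Cox6c.

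**Figure D2:**
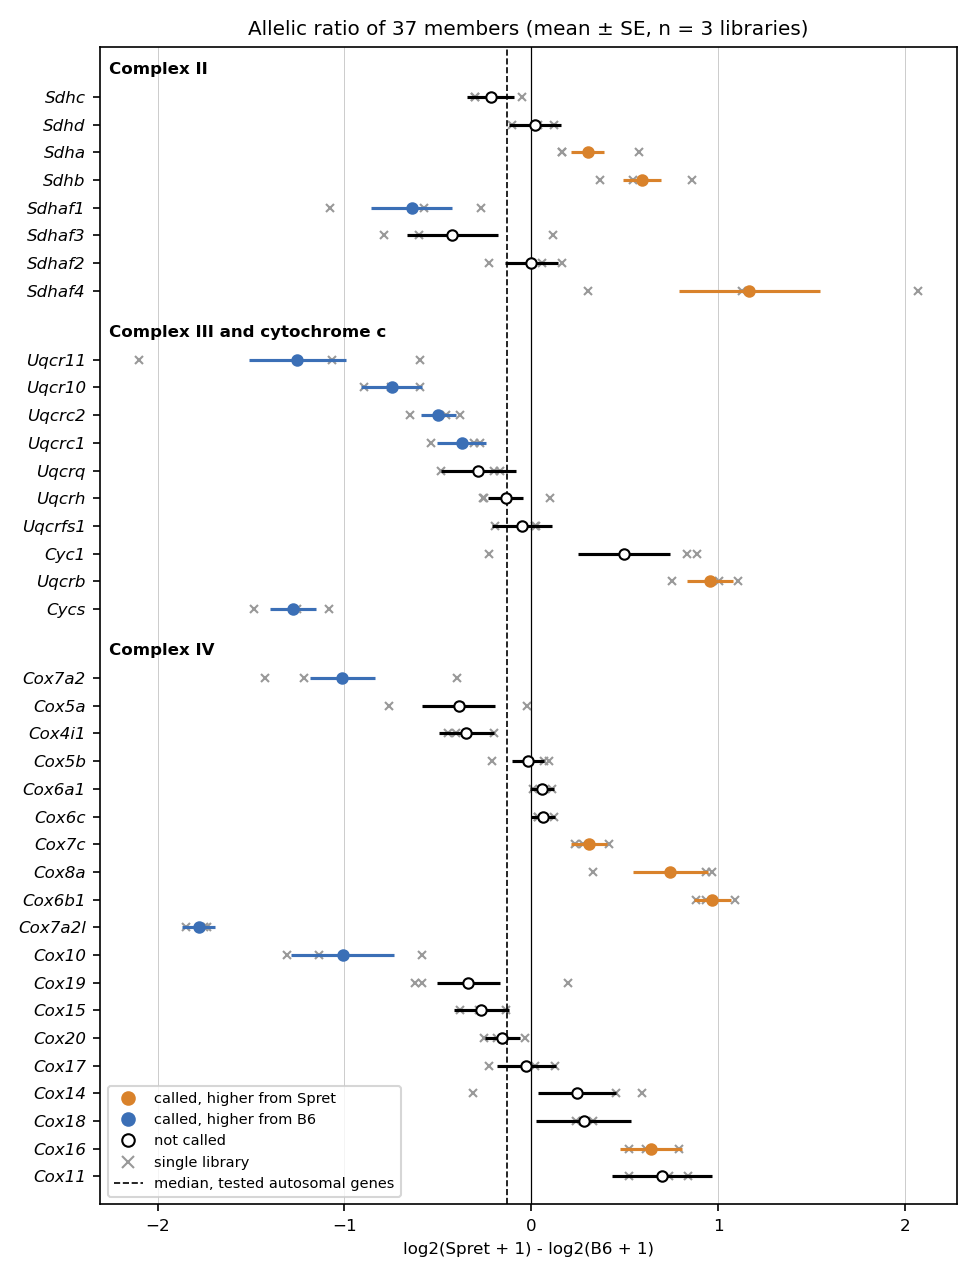
Ratio of each tested member on the log2 scale (filled circles were called, open circles were not; bars are SE, n = 3), with crosses for single libraries and a dashed line at the autosomal median of -0.13. Complex III leans to the left with Cycs, Uqcr11, Uqcr10, Uqcrc2 and Uqcrc1, while Uqcrb stands on the other side.

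Summed over members, the Spret share of complex II lay above that of all autosomal genes, and that of complex III with Cycs below it. Complex II genes summed to 1060, 810 and 1067 from B6 and to 1105, 1069 and 1162 from Spret in libraries 1, 2 and 3, a Spret share of 53.4% ± 3.11 (SD, n = 3). Complex III genes with Cycs summed to 1500, 1156 and 1429 from B6 and to 1221, 894 and 1245 from Spret, a share of 45.01% ± 1.48, which was 47.2% ± 1.34 without Cycs. Complex IV genes summed to 3557, 2905 and 3372 from B6 and to 3217, 2819 and 3137 from Spret, a share of 48.3% ± 0.885, which was 50.9% ± 0.795 without Cox7a2l. Over all autosomal genes the share was 47.7% ± 0.137, close to that of complex III without Cycs. Single genes thus weigh on the sums of complexes III and IV. The share of complex II was 54.8% ± 3.4 over its 4 subunit genes, where Sdha and Sdhb had the largest read numbers. Over its 4 assembly factors it was 47.1% ± 2.62. The sums were not tested.

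**Figure D3:**
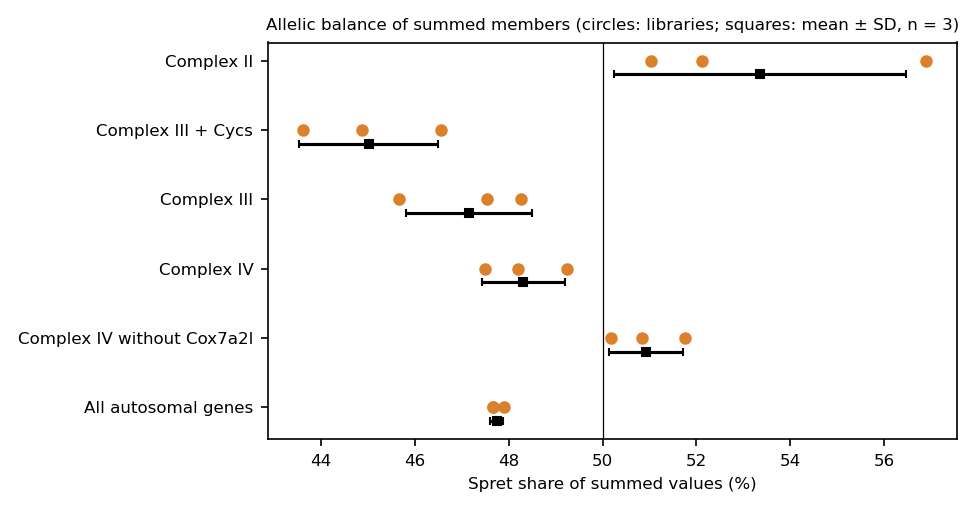
Spret share of summed values in percent for each complex, with circles for the 3 libraries and squares for mean ± SD. Complex II lies above 50 in all 3 libraries, complex III below it, and complex IV moves from below to above it when Cox7a2l is left out. All autosomal genes also lie below 50, close to complex III without Cycs.

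In complex II the catalytic subunits were higher from Spret, and the membrane anchors were not called. Sdhb (chr4:140961203-140979193, mm10), the iron-sulfur subunit that relays electrons, read 246, 153 and 197 from B6 and 318, 279 and 288 from Spret in libraries 1, 2 and 3. The Spret values were higher in every library, by a ratio of 0.59 ± 0.10 (1.51-fold, limma adjusted p = 0.000493). Sdha, the flavoprotein that oxidises succinate, read 386, 271 and 386 from B6 and 433, 405 and 433 from Spret, without overlap, a ratio of 0.30 ± 0.09 (limma adjusted p = 0.0183). Sdhc, a membrane anchor, read 131, 119 and 132 from B6 and 106, 115 and 107 from Spret, all B6 values above all Spret values, but the ratio of -0.22 ± 0.13 was not called (limma adjusted p = 0.214). Sdhd, the other anchor, had a ratio of 0.02 ± 0.14. The Sdha call ended without library 1 (limma adjusted p = 0.0666) and without library 2 (0.186).

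The assembly factors of complex II differed in direction. Sdhaf1, a factor for the iron-sulfur clusters of Sdhb, read 75, 46 and 54 from B6 and 35, 38 and 36 from Spret, a ratio of -0.64 ± 0.22 (limma adjusted p = 0.0379). Its exons share 1733 bases with E130208F15Rik on the opposite strand, whose ratio was -0.66. The use of strand in counting was not given in those sources, so reads of the pair cannot be told apart. The exons of 12 tested members overlap those of another tested gene, and the same limit holds for each. Besides Sdhaf1 they include Cox4i1, Cox5a, Cox6c, Cox11, Cox17 and Cox20. Sdhaf4, a chaperone of the flavinated Sdha protein, read 16, 4 and 10 from B6 and 20, 20 and 23 from Spret, a ratio of 1.17 ± 0.38 (limma adjusted p = 0.0309) on low values. Sdhaf2, needed to attach the flavin to Sdha, and Sdhaf3 were not called, at ratios of 0.00 and -0.42. The Sdhaf1 call ended once ratios were centred (limma adjusted p = 0.0903), without library 1 (0.293) and without library 3 (0.12). The Sdhaf4 call ended without library 2 (0.194) and without library 3 (0.118).

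In complex III, 4 of 9 subunit genes were higher from B6 and 1 was higher from Spret, beside 20.7% and 7.78% of autosomal genes. With centred ratios 3 were called toward B6 and 1 toward Spret, beside 13.5% and 13.3% of autosomal genes. Uqcrc2, a core protein of the matrix side, read 327, 239 and 333 from B6 and 208, 174 and 255 from Spret. B6 was higher within each library although the ranges overlapped, with a ratio of -0.50 ± 0.09 (limma adjusted p = 0.000787). The exons of Uqcrc2 share 504 bases with Pdzd9 on the opposite strand, which had a ratio of -1.28. Uqcrc1, the other core protein, read 128, 97 and 160 from B6 and 88, 80 and 129 from Spret, a ratio of -0.37 ± 0.13 (limma adjusted p = 0.0420). The core proteins thus leaned the same way. The Uqcrc1 call ended once ratios were centred (limma adjusted p = 0.171) and without library 1, 2 or 3 (0.233, 0.0504 and 0.141).

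Among the small accessory subunits of complex III, Uqcr11, Uqcr10 and Uqcrb differed by more than the core proteins, in both directions. Uqcr11 (chr10:80402997-80406830) read 76, 68 and 64 from B6 and 17, 32 and 42 from Spret, a ratio of -1.25 ± 0.26 (limma adjusted p = 0.00205). Uqcr10 read 105, 79 and 88 from B6 and 62, 42 and 58 from Spret, a ratio of -0.75 ± 0.16 (limma adjusted p = 0.00302). In both genes every Spret value lay below every B6 value. Uqcrb (chr13:66900617-66905378), which sits near the ubiquinone site, read 97, 79 and 115 from B6 and 210, 134 and 232 from Spret, a ratio of 0.96 ± 0.12 (1.94-fold, limma adjusted p = 2.54e-05). Uqcrb has 4 annotated processed copies, which together held 11 from B6 and 11 from Spret over the 3 libraries, and adding them left a ratio of 0.93. The Uqcr11 call ended without library 1 (limma adjusted p = 0.0541).

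The redox centres of complex III were not called. Uqcrfs1, the Rieske iron-sulfur protein, had a ratio of -0.05 ± 0.16, and Cyc1, the cytochrome c1 protein, read 32, 40 and 36 from B6 and 60, 34 and 65 from Spret, a ratio of 0.50 ± 0.25. Uqcrh, the hinge protein that binds cytochrome c1, read 317, 248 and 346 from B6 and 340, 207 and 290 from Spret, a ratio of -0.14 ± 0.09, with overlapping alleles. Uqcrq had a ratio of -0.28 ± 0.20. Without library 2, whose Cyc1 values went the other way, Cyc1 was called toward Spret (limma adjusted p = 0.0168).

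Cycs (chr6:50562563-50566538), the electron carrier between complexes III and IV that also triggers apoptosis when it leaves mitochondria, was clearly higher from B6. It read 251, 209 and 171 from B6 and 89, 98 and 71 from Spret in libraries 1, 2 and 3. The alleles did not overlap, with means of 210 ± 40.02 and 86.0 ± 13.8 (SD, n = 3) and a ratio of -1.28 ± 0.12 (2.42-fold, limma adjusted p = 1.23e-06). Cycs has 9 annotated close copies, with at least 90% identity over 200 bases, and 7 of them are in the table. The 7 copies held 25 from B6 and 11 from Spret in sum over the libraries, and adding them left a ratio of -1.27. The copy with the longest match, Gm10053 (99.89% identity over 946 bases), is not among the 7, so its part was not tested.

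The promoters of Cycs and Uqcr11, the called genes of complex III with the lowest ratios, are shown, as the sequence that directs their transcription, over the 250 bases before the transcript start in the B6 reference (RefSeq, GRCm38.p6). The Cycs window is chr6:50566570-50566819 and the Uqcr11 window chr10:80406822-80407071, both on the minus strand. Capitals mark, in Cycs, the palindrome TGACGTCA of the cyclic AMP response element and GCATGCGC, a short form of the NRF1 motif, and, in Uqcr11, CCGGAAGT, the core that ETS factors such as GABP bind. NRF1 and GABP are known regulators of nuclear respiratory genes.
Cycs: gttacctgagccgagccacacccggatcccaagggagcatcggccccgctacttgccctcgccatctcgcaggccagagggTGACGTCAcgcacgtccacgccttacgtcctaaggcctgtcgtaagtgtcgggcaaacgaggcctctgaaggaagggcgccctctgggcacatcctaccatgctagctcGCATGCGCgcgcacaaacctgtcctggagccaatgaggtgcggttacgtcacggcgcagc
Uqcr11: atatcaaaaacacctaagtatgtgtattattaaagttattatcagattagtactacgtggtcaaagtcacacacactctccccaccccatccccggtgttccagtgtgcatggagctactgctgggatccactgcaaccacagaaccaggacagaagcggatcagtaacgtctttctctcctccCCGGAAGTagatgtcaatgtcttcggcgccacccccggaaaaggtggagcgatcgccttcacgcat
The motifs start 169 and 60 bases before the transcript start in Cycs and 66 bases before it in Uqcr11. Windows were found for 28 of the 37 tested members and searched on both strands. CCGGAAGT occurred in 3 of them (Cox10, Uqcr11 and Uqcrh) and in 2.93% of 27025 promoters, the full NRF1 palindrome in 3 (Cox6a1, Sdha and Sdhd) and in 3.86%, and the YY1 motif in 0 and in 0.218%. TATAAA occurred in 1, Cox10, and in 13.0% of promoters. TGACGTCA occurred in 2 (Cycs and Uqcrfs1) and in 1.62%, and GCATGCGC, which can overlap the NRF1 core, in 3 (Cox6a1, Cycs and Sdhb) and in 2.32%. TGACGTCA and GCATGCGC were added after the sequences had been read. The windows of Cox7a2l and Sdhaf4 held none of these motifs. The Spret sequence of these windows was not analysed here.

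Among the structural subunits of complex IV, the genes with the largest read numbers were not called and had ratios near 0, while others differed clearly. Cox6a1 read 622, 480 and 629 from B6 and 625, 518 and 654 from Spret, a ratio of 0.06 ± 0.06. Cox6c read 585, 482 and 508 from B6 and 600, 524 and 520 from Spret, a ratio of 0.06 ± 0.06. Cox5b, which binds zinc, read 376, 281 and 321 from B6 and 325, 300 and 336 from Spret, a ratio of -0.02 ± 0.09. None of the 3 was called. Within libraries Cox6a1 and Cox6c were each slightly higher from Spret in 3 of 3, and Cox5b went both ways. With centred ratios Cox6a1 and Cox6c were called toward Spret at 0.18 and 0.19 (limma adjusted p = 0.0414 for each).

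Cox6b1 (chr7:30616861-30626151), which joins the monomers of the enzyme on the intermembrane side, was nearly doubled from Spret. It read 134, 116 and 148 from B6 and 257, 248 and 274 from Spret, without overlap, a ratio of 0.97 ± 0.10 (1.96-fold, limma adjusted p = 3.02e-06). On the same chromosome Sdhaf1 (chr7:30321406-30323895) went the other way, as given above. Cox8a, the ubiquitous form of the smallest subunit, read 44, 34 and 44 from B6 and 87, 43 and 85 from Spret, a ratio of 0.74 ± 0.20 (limma adjusted p = 0.0116). Cox7c read 215, 158 and 177 from B6 and 261, 211 and 208 from Spret, a ratio of 0.31 ± 0.10 (limma adjusted p = 0.0261). Both were higher from Spret in 3 of 3 libraries with overlapping ranges. The Cox8a call ended without library 1 (limma adjusted p = 0.134) and library 3 (0.114), and that of Cox7c without library 1, 2 or 3 (0.12, 0.115 and 0.0639).

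Cox7a2, the form of subunit VIIa found outside muscle, was the structural subunit called toward B6. It read 173, 111 and 184 from B6 and 74, 84 and 68 from Spret, a ratio of -1.01 ± 0.17 (2.02-fold, limma adjusted p = 0.000442). Library 2 showed the smallest gap between its alleles. Cox4i1, the ubiquitous form of the subunit through which ATP regulates the enzyme, read 120, 106 and 69 from B6 and 88, 80 and 60 from Spret, a ratio of -0.35 ± 0.15 that was not called (limma adjusted p = 0.0888). Cox5a, a partner of the Cox4 protein early in assembly, had a ratio of -0.39 ± 0.19 and was not called.

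Cox7a2l (chr17:83501918-83517330), a relative of Cox7a2 that joins complexes III and IV into supercomplexes and is also known as SCAF1, had the lowest ratio of all members. It read 500, 385 and 474 from B6 and 138, 115 and 140 from Spret in libraries 1, 2 and 3. With means of 453 ± 60.3 and 131 ± 13.9 (SD, n = 3), the ratio was -1.78 ± 0.09 (3.43-fold, limma adjusted p = 4.51e-10). C57BL/6 mice are known to carry a short form of this protein, from a small in-frame deletion, that many other strains lack. A processed copy of the gene, Gm6969 (chr12:24638669-24639010), went the opposite way. Gm6969 read 2, 0 and 0 from B6 and 57, 31 and 67 from Spret, a ratio of 5.12 ± 0.44 (limma adjusted p = 3.17e-07). So Spret reads stood at the copy where B6 reads were nearly absent.

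The copy and its parent differ in the B6 reference at the stretch below, which is shown because the 2 genes went opposite ways between the alleles. The Cox7a2l coding sequence (336 bases, GENCODE M21, GRCm38) and Gm6969 (342 bases) are identical over their first 213 bases and then differ in length by 6. After that stretch 122 bases follow with 1 mismatch. Capitals mark what lies between the shared flanks, 1 base in Cox7a2l (chr17:83502678-83502737) and 7 in Gm6969 (chr12:24638744-24638809), both on the minus strand.
Cox7a2l: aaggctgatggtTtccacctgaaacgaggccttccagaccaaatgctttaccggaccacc
Gm6969: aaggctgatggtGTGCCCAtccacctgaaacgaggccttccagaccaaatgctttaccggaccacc
With the values of Gm6969 and Gm10242, a second annotated copy, added to those of Cox7a2l, the sums were 502, 385 and 474 from B6 and 195, 149 and 207 from Spret. The ratio was then -1.31 ± 0.10 (SD, n = 3), a 2.47-fold difference, so B6 stayed higher in 3 of 3 libraries by a smaller amount. Which of the reads at Gm6969 came from Cox7a2l transcripts was not tested. Another 10 tested members have annotated close copies, and for 7 of them copies were in the table. Adding these copies moved none of the 7 ratios to the other side of 0. The copies held only 0.0621% (Cox6c) to 4.05% (Cycs) of the member's own values, so adding them could hardly move a ratio. The addition therefore cannot show whether copies affected the values of these members.

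**Figure D4:**
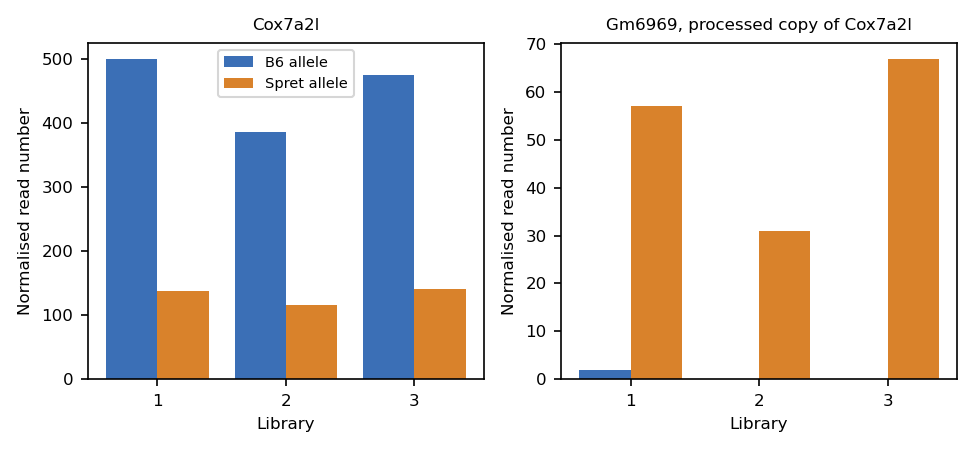
Normalised read numbers per library of Cox7a2l (left) and of its processed copy Gm6969 (right), on separate axes that start at 0, with B6 and Spret bars side by side. Cox7a2l is higher from B6 in all 3 libraries, and Gm6969 reads 31 to 67 from Spret and 0 to 2 from B6.

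Among the 9 assembly factors of complex IV, 1 was called toward each allele, 22.2% in all beside 28.4% of autosomal genes. With centred ratios 2 were called toward Spret and 1 toward B6, beside 13.3% and 13.5% of autosomal genes. Cox10, which makes the heme O precursor of heme A, read 46, 32 and 29 from B6 and 18, 14 and 19 from Spret, without overlap, a ratio of -1.01 ± 0.28 (limma adjusted p = 0.0127). Cox16, a factor for the copper-bearing subunit 2, read 58, 50 and 54 from B6 and 101, 77 and 78 from Spret, a ratio of 0.64 ± 0.17 (limma adjusted p = 0.00870). Cox16 shares 2130 exonic bases with Gm20498 on the same strand, whose ratio was 0.63, so their reads could not be separated here. Both calls ended without library 1 (limma adjusted p = 0.128 for Cox10 and 0.0978 for Cox16). Cox15, which turns heme O into heme A, had a ratio of -0.27 ± 0.15 and was not called.

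None of the copper handling factors was called, and their ratios differed. Cox17, the copper chaperone of the intermembrane space, had a ratio of -0.03 ± 0.16, and Cox19 had -0.34 ± 0.17. Cox11, which inserts copper into the catalytic subunit, read 22, 17 and 18 from B6 and 32, 29 and 33 from Spret. The alleles of Cox11 did not overlap, but the ratio of 0.70 ± 0.27 was not called (limma adjusted p = 0.0613), while the centred ratio of 0.82 was (0.0317). Its exons share 688 bases with Tom1l1 on the opposite strand, whose ratio was 0.05. Cox14, Cox18 and Cox20, which guide newly made mitochondrial subunits, were not called, at ratios of 0.25, 0.28 and -0.15. Cox19 was called toward B6 without library 2 (limma adjusted p = 0.0188).

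The remaining 13 members fell below the limit for testing. They were 7 tissue forms of complex IV subunits, Cox4i2, Cox6a2, Cox6b2, Cox7a1, Cox7b2, Cox8b and Cox8c, and the 6 pseudogenes. Cox6a2, Cox7a1 and Cox8b, the forms of heart and skeletal muscle, had no value above 9 in any column, as had Cox4i2, the form of the lung. Cox6b2, a testis form, ranged from 5 to 13. Markers of striated muscle and heart summed to between 74 and 170 per library. No pseudogene matched by name had a value above 4.

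Genes of the same pathway outside the name rule were taken from a list of 46 assembly factors, regulators and the complex IV subunit Ndufa4, of which 40 were in the table and tested. By limma 4 were higher from Spret and 9 from B6, 32.5% in all beside 28.4% of autosomal genes, with a median ratio of -0.10. With centred ratios the split turned, to 6 toward Spret and 5 toward B6. Over all autosomal genes the shares toward Spret and B6 shifted the same way, from 7.78% and 20.7% to 13.3% and 13.5%. Toward Spret, Coa3, which stabilises newly made subunit 1 of complex IV, had a ratio of 0.95 ± 0.16 (limma adjusted p = 0.000316), with 107, 66 and 94 from B6 and 196, 181 and 136 from Spret. Fdx2, a ferredoxin of heme A synthesis, followed at 0.95 ± 0.22, Lyrm7, a chaperone of the Rieske protein, at 0.59 ± 0.19, and Tfb2m, a mitochondrial transcription factor, at 0.52 ± 0.18. Toward B6 the called genes with the largest read numbers were the zinc finger factor Yy1 at -0.34 ± 0.10, the complex III factor Ttc19 at -0.46 ± 0.10, Pnkd at -0.47 ± 0.12 and the assembly factor Coa7 at -0.62 ± 0.17.

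Of 12 tested regulators of respiratory genes, Yy1 and Tfb2m were called (16.7%, beside 28.4% of autosomal genes). The ratios of the other 10 ran from -0.56 ± 0.24 for Ppargc1a to 0.52 ± 0.30 for Ppargc1b, both coactivators of mitochondrial genes, with Nrf1 at -0.33 ± 0.12, Gabpa at 0.06 ± 0.08 and Tfam at -0.14 ± 0.14. Ndufa4 read 40, 28 and 53 from B6 and 70, 31 and 68 from Spret, a ratio of 0.43 ± 0.21 that was not called. The Yy1 call ended once ratios were centred (limma adjusted p = 0.119) and without library 1, 2 or 3 (0.0649, 0.065 and 0.102). Tfb2m lost its call without each library as well (0.15, 0.0655 and 0.158). Without library 1 the calls of Lyrm7 (0.201) and Fdx2 (0.0615) ended, without library 2 those of Lyrm7 (0.0871), Pnkd (0.076) and Coa7 (0.0701), and without library 3 those of Pnkd (0.0569) and Coa7 (0.13).

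Some members start close to a gene on the other strand. Within 1000 bases of the start of a tested member, 12 pairs with a tested partner were found. Such pairs were not counted over all tested genes, so the counts here only describe the members. In 1 pair the partners were called in opposite directions. Sdha was higher from Spret, as given above, while Ccdc127, which starts 29 bases away, read 338 ± 49.9 from B6 and 181 ± 21.1 from Spret (SD, n = 3), a ratio of -0.89 ± 0.09 (limma adjusted p = 1.50e-06). In 2 pairs both were called toward B6. Zmat5, 336 bases from Uqcr10, had a ratio of -1.39 ± 0.25, and 2810001G20Rik, 16 bases from Cox10, had -2.33 ± 0.36 on low values of 36.7 ± 7.37 and 8 ± 7.

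In other pairs the partner was called and the member was not. Cpsf7 starts 876 bases from Sdhaf2 and read 316 ± 57.6 from B6 and 118 ± 24.5 from Spret, a ratio of -1.42 ± 0.10 (limma adjusted p = 4.21e-08), beside 0.00 for Sdhaf2. Their exons share 94 bases on opposite strands. Stxbp4, 89 bases from Cox11, had a ratio of -0.52 ± 0.15 beside 0.70 for Cox11. Uqcrb was called toward Spret, while Gm10767, 464 bases away, was not called at -0.33 ± 0.30. Whether a member and its partner differed from each other was not tested.

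**Figure D5:**
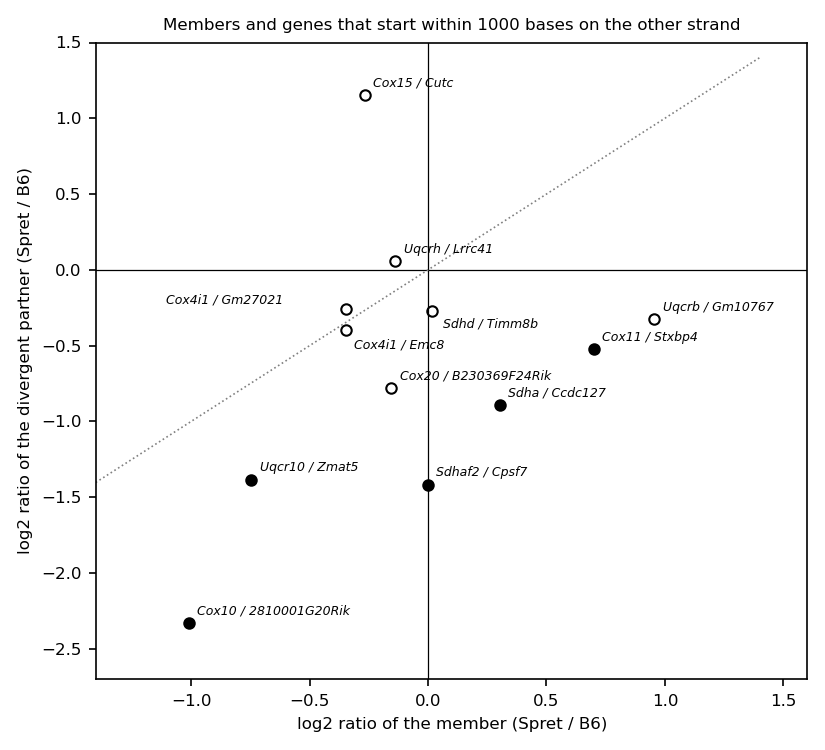
Ratio of each member (x axis) against that of the gene that starts within 1000 bases on the other strand (y axis), both on the log2 scale, for 12 pairs, with filled circles where the partner was called. Points near the dotted line have nearly equal ratios. Sdha with Ccdc127, Sdhaf2 with Cpsf7, Cox10 with 2810001G20Rik, Uqcrb with Gm10767 and Cox11 with Stxbp4 lie well below it.

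The neighbouring complexes of the chain were set beside these values for orientation. Of 41 tested autosomal complex I genes, 8 were called toward Spret and 12 toward B6 (48.8%, beside 28.4% of autosomal genes), with a median ratio of -0.16. With centred ratios the split turned, to 10 toward Spret and 8 toward B6. Over all autosomal genes the shares toward Spret and B6 shifted the same way, from 7.78% and 20.7% to 13.3% and 13.5%. Of 16 ATP synthase genes, 2 were called toward each allele (25%), with a median ratio of -0.01, and with centred ratios 3 were called toward Spret and 1 toward B6. The median size of the ratio, whatever its sign, was 0.37 over the 37 members, 0.40 over complex I, 0.17 over ATP synthase and 0.29 over all tested autosomal genes. The differences between these groups were not tested.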

How the data were processed

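The 3 organoid libraries were ribosome-depleted and aimed at 80M reads each, per the labels' protocols. The submitters' processing notes name mm10. The authors deposited a score per gene and allele, a normalised read number rounded to a whole number, as the table's name and values show. The aligner, allele assignment, counter, strand setting and scale factors were not given in the sources used here. The depth in reads is therefore unknown, and counting intervals are left out. All 6 allele columns were used. No columns were identical. The chi-square per degree of freedom between library pairs was 2.76 to 6.01. As the values were rescaled by unknown factors, it cannot be read against counting noise.

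Positions came from GENCODE M21 (42620 genes) and RefSeq (899 more). Differences were tested with limma 3.58.1 in R 4.3.3 on log2(value + 1), two-sided, modelling library plus allele with an intensity trend, over all 15985 genes with a mean of at least 10. A pseudocount understates differences of low genes. Each gene had 2 residual degrees of freedom beside a prior of 12.3. The block on library comes from the material, as both alleles share the RNA. Deviations of the alleles from their means correlated at 0.205, 0.435 and 0.550 within libraries 1, 2 and 3.

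Members, lists and alternatives were chosen with earlier results of these data known. Named members were those called and the 3 of largest summed value per complex, from the wider list the 4 called per direction of largest value. Close copies were found with blastn 2.17.0 among GENCODE transcripts. Alternatives were other pseudocounts and filters, centred ratios, no block, no trend and each library left out. Choices made after seeing the values were leaving out overlapping or copied genes, adjusting over autosomes, and the divergent partners. The summed level of the cortical markers is not reported here.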

Additional observations from a re-analysis of the deposited data

How the results depend on the processing

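The count of 17 called members (8 toward Spret, 9 toward B6) kept within 1.5 times under pseudocounts of 0.5 and 5 and centred ratios (18). It also did under adjustment over autosomal genes (17). The same held with a minimum mean of 50 (28 members tested, 13 called), where 3640 of 9232 tested genes were called. Leaving out members that overlap a tested gene, or members that have a close copy, left 13 calls each. Nothing was refitted there, so the count could only fall and does not show how overlap or copies bore on the calls. With no filter on low values 4 were called, 2 toward each allele; without the library block 6, 2 toward Spret and 4 toward B6; without the intensity trend 8, 4 toward each. Leaving out 1 library gave 9 to 15 called, 4 to 6 toward Spret and 5 to 9 toward B6, with 9 without library 1, which also had the highest sum of hem and choroid plexus markers (3537); its part in that was not tested. Calls ended for 13 members with no filter (limma adjusted p = 0.0713 to 0.276), for 11 without the block (0.0611 to 0.418) and for 10 without the trend (0.0667 to 0.217). Over all genes the 4852 calls became 1236, 1537 and 2229 under the same settings and 2667 to 4001 with a library left out. The wider list went from 13 calls to 0, 1 and 2, and to 5 to 6 with a library left out; at the 0 by limma, 17 of its genes had an unadjusted p under 0.05, and no other tool was run. The cause of these losses was not tested.

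No called member changed sign. Near 0, uncalled ratios did: with centred ratios Cox5b (0.107), Uqcrfs1 (0.073), Cox17 (0.097) and Sdhaf2 (0.12), and with a library left out Cox5b (-0.072 to 0.080), Sdhd (-0.033 to 0.078), Uqcrfs1 (-0.087 to 0.022), Cox17 (-0.10 to 0.074) and Sdhaf2 (-0.083 to 0.11). Of 361 member values over the settings, 293 kept direction and side of the threshold. Low values limit Sdhaf4, Cox10, Cox11 and Cox18.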
